A study of Mus musculus with 20 samples.

Results

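The 5 genes of hemoglobin production Hba-a1, Hba-a2, Hbb-bs, Hbb-bt and Alas2 were followed across the cerebella of 20 mice, as 5 of the 29200 genes in the count table. They were chosen from their values per mouse and their co-variation in these same 20 libraries. How strongly they vary together is therefore a description, given without a test, and the differences between groups are printed as the fit over all genes gave them and support no further statement. The 4 groups, of 5 mice each, were WT/WT mice of 2 months, 304Q/304Q mice of 2 months, WT/WT mice of 12 months and 304Q/304Q mice of 12 months, all on C57BL6/N. According to the study's figure captions, only males were sequenced. The 304Q/304Q mice carry a long interrupted CAACAG repeat in both alleles of the endogenous Atxn3 gene and come from 1 founder line, so that they model spinocerebellar ataxia type 3 without any wild-type copy. The sample labels name ataxin-2 for the wild-type alleles, and Atxn3 is used here as in the study's methods.

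Hemoglobin is a tetramer of a pair of alpha chains and a pair of beta chains, each of which holds a heme that binds oxygen. Red cell precursors in the bone marrow make it in bulk under the control of Gata1 and Klf1, and the reticulocytes and young red cells that enter the circulation still carry globin mRNA. Alas2 encodes the erythroid form of 5-aminolevulinate synthase, the first and rate-limiting enzyme of heme synthesis, whereas other cells use Alas1. In brain, globin transcripts reach a library with the blood held in the vessels, and low expression has also been described in neurons and glia.

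Hba-a1 (ENSMUSG00000069919) and Hba-a2 (ENSMUSG00000069917) encode alpha chains and lie on the plus strand of chromosome 11 in GRCm38, at chr11:32283511-32284465 and chr11:32296489-32297298, with 12023 bases between them. Hbb-bs (ENSMUSG00000052305, chr7:103826534-103828096) and Hbb-bt (ENSMUSG00000073940, chr7:103812524-103813996) encode the adult beta chains on the minus strand of chromosome 7, 12537 bases apart. Alas2 (ENSMUSG00000025270, chrX:150547375-150570638) lies on the plus strand of the X chromosome, inside the span of Apex2, which is read from the other strand. The counts cover all exons of a gene, and whether the counting used the strand is not given in the sources used here, so reads of Apex2 in the shared span cannot be told from those of Alas2. The coding sequences of Hba-a1 and Hba-a2 differ at 1 of 429 bases, and those of Hbb-bs and Hbb-bt at 1 of 444. Of all stretches of 100 bases in the annotated transcripts, 63.3% of Hba-a1, 79.5% of Hba-a2, 49.7% of Hbb-bs and 54.8% of Hbb-bt also occur in the paired gene, and 0% of those of Alas2 occur elsewhere. How much of a pair's reads each gene received is therefore uncertain, and whether shared reads were split, counted for both or left out is not given in the sources used here. If they were left out, the levels of all 4 globin genes, their sum and the ratio of alpha to beta chains are affected too.

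The stretches just upstream of the starts show what the genes share and where they differ. They are printed because the members varied together, and they come from RefSeq on GRCm38.p6, which held all 5 genes. Each is the coding strand from 120 bases before the start to the base before it, and capitals mark the motif CACCC, the motif CCAAT, the motif TATAA and the GATA motifs (AGATAA or AGATAG or TGATAA or TGATAG), each on either strand.
Hba-a2, plus strand, chr11:32296372-32296491: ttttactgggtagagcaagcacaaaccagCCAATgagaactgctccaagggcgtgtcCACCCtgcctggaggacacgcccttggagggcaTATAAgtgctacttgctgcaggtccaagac
Hbb-bs, minus strand, chr7:103827929-103828048: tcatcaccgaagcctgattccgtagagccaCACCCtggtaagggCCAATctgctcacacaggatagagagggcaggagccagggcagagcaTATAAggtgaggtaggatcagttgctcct
Hbb-bt, minus strand, chr7:103813924-103814043: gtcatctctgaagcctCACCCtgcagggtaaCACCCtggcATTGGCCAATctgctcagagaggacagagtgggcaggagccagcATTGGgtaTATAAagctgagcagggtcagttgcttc
Alas2, plus strand, chrX:150547297-150547416: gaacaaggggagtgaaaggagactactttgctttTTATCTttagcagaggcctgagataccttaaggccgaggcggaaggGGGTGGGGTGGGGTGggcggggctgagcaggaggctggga
The Hba-a1 window had the same letters as that of Hba-a2 over all 297 bases that overlap after a shift of 3 bases, and is not printed. All 4 globin genes had TATAA from 23 to 30 bases before the start, and CCAAT and CACCC further upstream within the printed stretch. In Alas2, CACCC was found 3 times on the minus strand between 26 and 40 bases before the start and AGATAA once on the minus strand, between 81 and 86 bases before it, with no CCAAT in the window. In the whole window of 300 bases, from 250 before to 50 after the start, a GATA motif was also found in Hba-a1, Hba-a2 and Hbb-bs, and these letters were not found in that of Hbb-bt. Over 32851 RefSeq windows of this length, 57.5% held CACCC, 37.4% CCAAT, 24.9% TATAA and 29.8% a GATA motif, so a match in 1 window is common. GENCODE M21 places the first base of Hba-a1, Hba-a2, Hbb-bs, Hbb-bt and Alas2 161, 3, 168, 73 and 42 bases upstream of the RefSeq starts.

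The libraries held between 11385380 and 27636687 counts, and the cerebellum was evident in all of them. The 9 markers of granule and Purkinje cells, among them Gabra6, Cbln3 and Pcp2, summed to between 7011 and 9488 CPM, which are counts for every 1000000 counts of a library, its size scaled by the TMM method of edgeR. The 4 globin genes together took from 0.00874% to 0.0243% of the counts of a library. Nothing in the methods states a perfusion of the mice whose RNA was taken, which were killed by CO2 and decapitation. In bulk RNA, fewer cells of a type and less RNA per cell cannot be told apart.

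Per length, Hbb-bs had the highest level of the 5 genes, with a median over the 20 mice of 114 RPKM (CPM divided by the exon length in kilobases). Hba-a1 followed with 24.9 RPKM, Hba-a2 with 12.2, Hbb-bt with 5.17 and Alas2 with 1.398. The order of neighbouring paralogs rests on how their shared reads were split. The range over mice did not overlap between Hbb-bs, from 90.3 to 236 RPKM, and Hba-a1, from 17.2 to 52.6 RPKM, but it did between Hba-a1 and Hba-a2, from 5.15 to 27.0 RPKM. The range of Hba-a2 also overlapped that of Hbb-bt, from 2.64 to 12.2 RPKM, whereas Alas2 lay below Hbb-bt, from 0.865 to 2.45 RPKM. The ubiquitous enzyme Alas1 had a median of 10.8 RPKM, above every value of Alas2, and cytoglobin (Cygb), a globin of non-erythroid cells, one of 47.0 RPKM.

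All 5 members passed the filter on low values, a mean of 50 counts or more, and Alas2 did so narrowly with 51.2. Its highest count, 97, was in the deepest library, 304Q/304Q replicate 1 of 2 months. Without that library its mean would be under 50, although Alas2 stayed in the fit that left the library out. In 3 of the 4 groups the mice differed in each of the 5 members by more than counting alone gives. This was not so for every member in 304Q/304Q mice of 12 months. For Hbb-bs the coefficient of variation was 41.6% in the WT/WT and 27.4% in the 304Q/304Q group of 2 months and 26.3% in the WT/WT group of 12 months, against a counting error of 2.80%, 2.34% and 2.30%. In 304Q/304Q mice of 12 months it was 5.10%, with a counting error of 3.198%. In this last group the coefficient of variation of Alas2, 16.257%, was no larger than its counting error of 16.265%, and those of Hba-a1 and Hbb-bt, 10.001% and 27.1%, compared with counting errors of 6.68% and 16.4%. The biological coefficient of variation fitted by edgeR was 0.226 for Hba-a1, 0.258 for Hba-a2, 0.225 for Hbb-bs, 0.294 for Hbb-bt and 0.242 for Alas2. The median of the 12153 genes tested was 0.1003, and between 97.0% and 99.3% of them had a lower value than a given member.

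In 12-month-old animals, the 4 globin genes were lower in the 304Q/304Q group, with log2 fold changes between −0.90 and −1.13, and the difference of Alas2, −0.58, did not pass the test. The sum of the 4 globin genes was 113, 197, 240, 193 and 214 CPM in WT/WT replicates 1 to 5 and 104, 99.2, 98.5, 91.9 and 109 CPM in 304Q/304Q replicates 1 to 5. The 5 mutant mice lay close together and below all 5 wild-type mice, of which replicate 1 stood near them and far from the other four.

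Hbb-bs, the main beta chain gene, was at 81.2, 134, 181, 143 and 153 CPM in the 12-month WT/WT mice and at 74.8, 77.1, 71.1, 69.9 and 78.7 CPM in the 304Q/304Q mice. The groups did not overlap, and the mutant mice kept within 69.9 and 78.7 CPM. Its log2 fold change was −0.90 (standard error 0.207, adjusted p = 0.00495 by the quasi-likelihood test of edgeR, with p-values adjusted by Benjamini-Hochberg over all genes), from 139 ± 36.5 to 74.3 ± 3.79 CPM (SD, n = 5).

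Hba-a1 was at 19.6, 42.7, 40.3, 32.7 and 35.1 CPM in the 12-month WT/WT mice and at 18.5, 15.7, 17.1, 14.9 and 18.9 CPM in the 304Q/304Q mice. Again the groups did not overlap, with the lowest WT/WT value, that of replicate 1, just above the highest of the mutant mice. The log2 fold change was −1.002 (standard error 0.212, adjusted p = 0.00244 by edgeR).

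Hba-a2 was at 9.11, 13.4, 12.9, 11.1 and 17.996 CPM in WT/WT and at 6.61, 4.57, 6.99, 4.88 and 7.85 CPM in 304Q/304Q mice of 12 months, without overlap. Its log2 fold change was −1.06 (standard error 0.250, adjusted p = 0.00586 by edgeR). Hbb-bt was at 3.11, 6.99, 6.35, 6.17 and 8.61 CPM in WT/WT and at 3.67, 1.86, 3.32, 2.21 and 3.16 CPM in 304Q/304Q mice. Here WT/WT replicate 1 lay within the range of the mutant mice, and the log2 fold change was −1.13 (standard error 0.299, adjusted p = 0.0134 by edgeR).

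For Alas2, the values were 2.26, 3.88, 4.41, 5.11 and 5.90 CPM in WT/WT and 2.73, 2.79, 2.88, 3.66 and 2.38 CPM in 304Q/304Q mice of 12 months, which is 29 to 76 counts per library. WT/WT replicate 1 was lower than all mutant mice, and the log2 fold change of −0.58 (standard error 0.259, 95% interval −1.11 to −0.04) had an adjusted p of 0.149 by edgeR. Thus 4 of the 5 genes were called at this age, all lower, as were 3.09% of all genes tested. A call means an adjusted p no higher than 0.05 together with a difference on the log2 scale of 0.5 or more, up or down. For 3 of the 5 the groups did not overlap, as for 8.94% of all genes. Since the values of these mice chose the members, nothing is read from these shares. The members are not independent of each other, and the median log2 fold change of all genes was −0.00386.

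The 4 calls were kept when any 1 of the 20 libraries was left out, and without WT/WT replicate 1 Alas2 was called as well (log2 fold change −0.74, adjusted p = 0.0409 by edgeR). Surrogate variables, which stand for unknown factors in the data and were part of the study's own model, ended them in part. With 3 of these as covariates, edgeR called Hba-a1 and Hbb-bs (adjusted p = 0.00773 and 0.00903) and DESeq2 called 0 members, with adjusted p-values of 0.0559 for Hba-a1 and 0.0724 for Hbb-bs and log2 fold changes of −0.93 and −0.90.

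**Figure D1:**
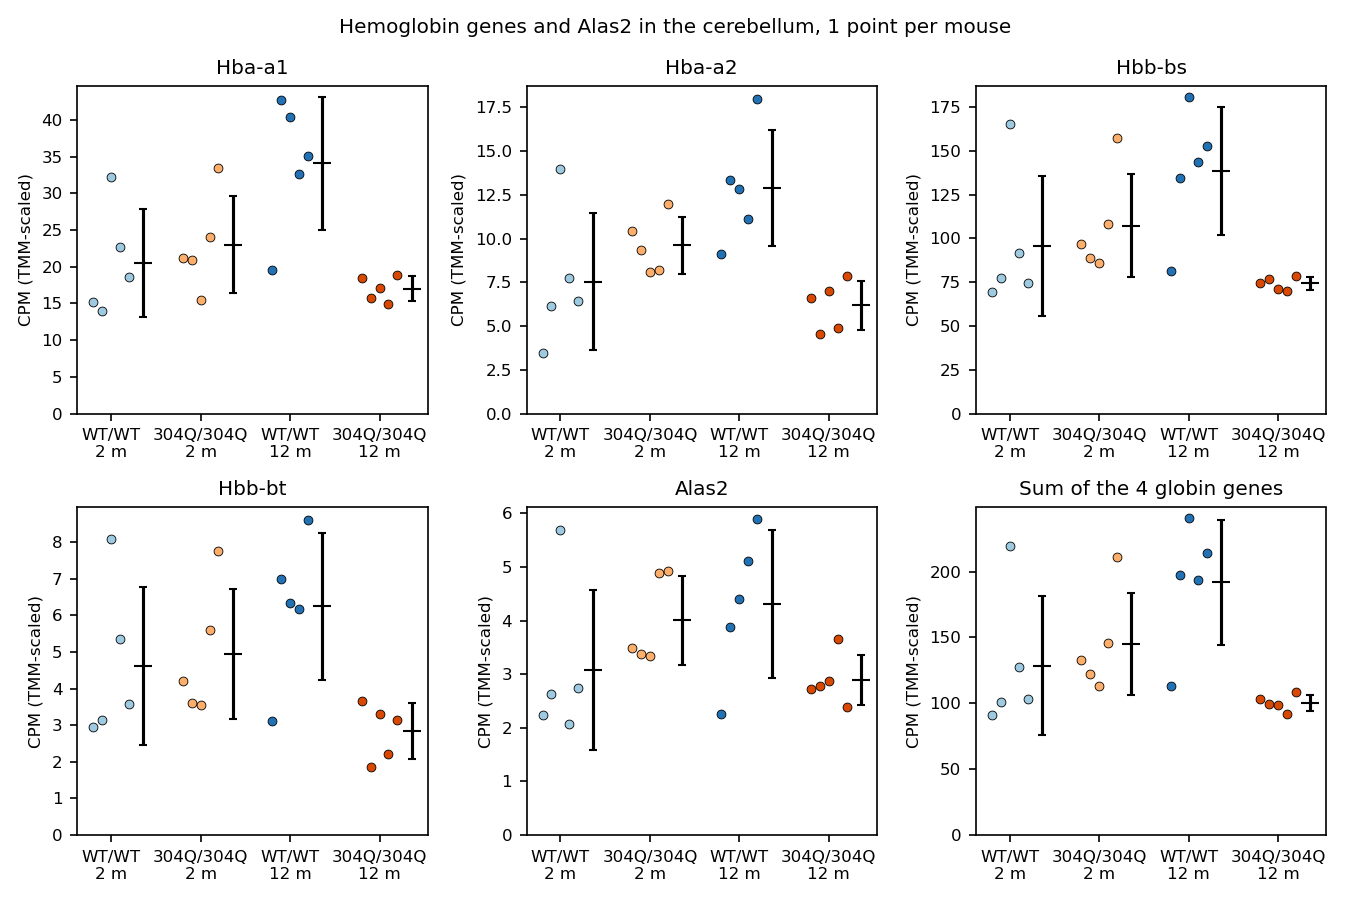
Levels of the 5 genes and of the sum of the 4 globin genes in CPM after TMM scaling (y axis, from 0) by group (x axis), with 1 point for each mouse and the mean ± SD of the 5 mice as a bar beside them. In 304Q/304Q mice of 12 months the sums lie between 91.9 and 109 CPM, and WT/WT replicate 1 of 12 months, at 113 CPM, lies far below the other 4 of its group.

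At 2 months, 0 of the 5 genes were called between genotypes by edgeR, where 0.00823% of all genes tested were, 0 had an unadjusted p under 0.05 and DESeq2 called 0 as well, and the values of both groups overlapped for every member, whereas they did not for 1.05% of all genes. The log2 fold changes of 304Q/304Q against WT/WT lay between 0.10 for Hbb-bt and 0.38 for Alas2, with adjusted p-values between 0.919 and 0.980 by edgeR. The sum of the 4 globin genes was 90.9, 101, 220, 128 and 103 CPM in WT/WT replicates 1 to 5 and 133, 122, 113, 146 and 211 CPM in the 304Q/304Q mice.

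In each genotype 1 young mouse stood above the rest of its group, WT/WT replicate 3 and 304Q/304Q replicate 5. Hbb-bs was at 69.3, 77.6, 165, 91.9 and 74.3 CPM in the WT/WT mice of 2 months and at 96.8, 88.6, 85.9, 108 and 158 CPM in the 304Q/304Q mice. Its log2 fold change was 0.17 with a 95% interval from −0.25 to 0.59, and became 0.46 without WT/WT replicate 3 and −0.01 without 304Q/304Q replicate 5.

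Alas2 was at 2.24, 2.64, 5.69, 2.08 and 2.74 CPM in the WT/WT mice and at 3.48, 3.37, 3.35, 4.89 and 4.93 CPM in the 304Q/304Q mice of 2 months. Apart from WT/WT replicate 3, every wild-type mouse was below every mutant mouse, and without that library the log2 fold change was 0.72, still with an adjusted p of 0.600 by edgeR. With it the interval ran from −0.14 to 0.91.

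With age, all 5 members had positive log2 fold changes in WT/WT mice, and those of Hba-a1 and Hba-a2 were called. In 304Q/304Q mice all 5 were negative and no member passed the test. In WT/WT mice, Hba-a1 went from 20.5 ± 7.34 to 34.1 ± 9.03 CPM (SD, n = 5), up by 0.74 on the log2 scale (standard error 0.209, adjusted p = 0.0250 by edgeR), and Hba-a2 from 7.54 ± 3.91 to 12.9 ± 3.30 CPM, up by 0.78 (standard error 0.246, adjusted p = 0.0419). The log2 fold changes of Hbb-bs, Hbb-bt and Alas2 were 0.54, 0.44 and 0.49, with adjusted p-values of 0.0890, 0.323 and 0.216 by edgeR. The call rate over all genes was 2.58%, and 6.54% of them had groups without overlap, which none of the 5 members had.

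These 2 calls rested on single libraries. Without WT/WT replicate 3 of 2 months 4 members were called, and 0 without 2-month replicate 1 or 2 or 12-month replicate 2, 3 or 5. There were 3 without 12-month replicate 1, and 1 without 2-month replicate 5 or 12-month replicate 4. Both calls were also lost with surrogate variables in either tool and when the 2 WT/WT groups were fitted alone, where Hba-a1 had an adjusted p of 0.0655 and Hba-a2 of 0.109 by edgeR.

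In 304Q/304Q mice, Hbb-bs went from 107 ± 29.4 to 74.3 ± 3.79 CPM (SD, n = 5) between 2 and 12 months, a difference of −0.53 on the log2 scale (standard error 0.207, adjusted p = 0.137 by edgeR). Hba-a2, at 10.4, 9.37, 8.07, 8.23 and 12.0 CPM at 2 months, was lower in all 5 older mice, and its log2 fold change of −0.64 had an adjusted p of 0.140. Hba-a1 had one of −0.44, Hbb-bt of −0.80 and Alas2 of −0.47, with adjusted p-values of 0.269, 0.121 and 0.340 by edgeR. By edgeR 0 were called, where 2.28% of all genes were, with 3 at an unadjusted p under 0.05 and 0 called by DESeq2, and Hba-a2 and Hbb-bs had no overlap between the ages, as 7.83% of all genes had. When only the 304Q/304Q mice were fitted, Hba-a2 and Hbb-bs were called (adjusted p = 0.0286 and 0.0117 by edgeR), and Hbb-bs alone was called without WT/WT replicate 3 of 2 months, which enters this comparison only through the shared estimate of the spread.

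The change of the genotype difference between 2 and 12 months was tested as an interaction. It was −1.17 on the log2 scale for Hba-a1 (standard error 0.299, adjusted p = 0.0397 by edgeR) and −1.42 for Hba-a2 (standard error 0.351, adjusted p = 0.0333), and both were called, as 0.938% of all genes tested were. For Hbb-bs it was −1.07, for Hbb-bt −1.24 and for Alas2 −0.96, with adjusted p-values of 0.0578, 0.133 and 0.193. Leaving out 1 library gave between 0 and 5 called members, with all 5 called without WT/WT replicate 3 of 2 months, 4 without WT/WT replicate 1 of 12 months, and 0 without any of 10 other libraries. DESeq2 with 3 surrogate variables called 0. The 5 comparisons share samples, and their values for the members are therefore not independent of each other.

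**Figure D2:**
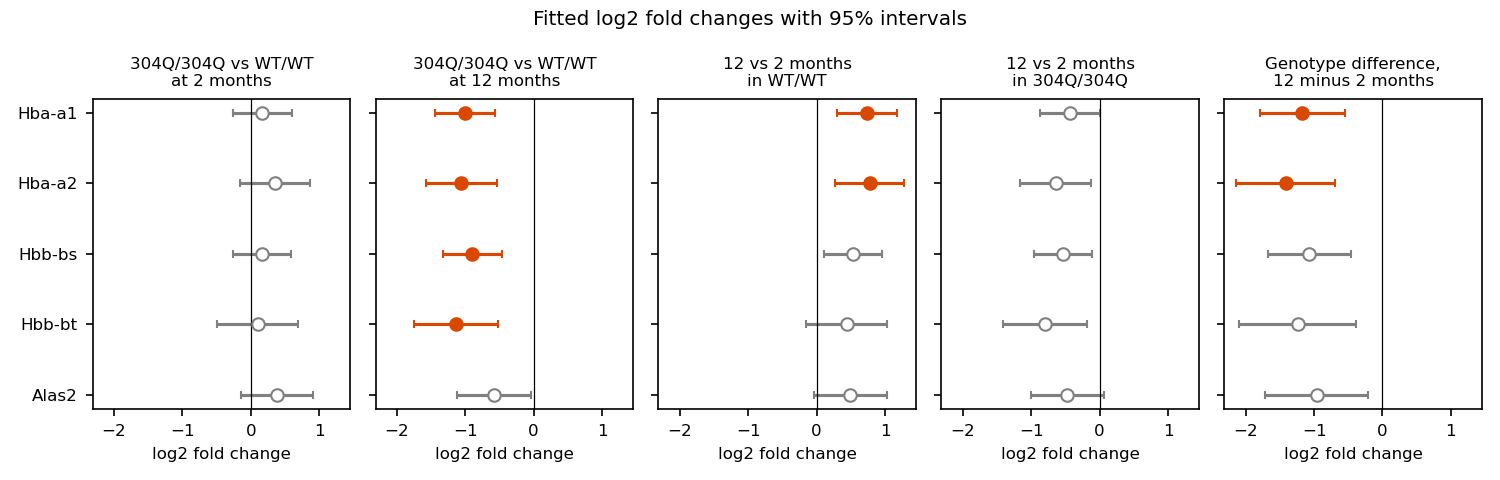
Log2 fold changes fitted by edgeR (x axis) with their 95% intervals for each gene (y axis) in the comparisons of genotype at 2 and 12 months, of age in each genotype, and their interaction. Filled orange points passed the thresholds, which 4 genes did for genotype at 12 months and Hba-a1 and Hba-a2 did for age in WT/WT mice and for the interaction.

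The 5 genes went up and down together from mouse to mouse within the groups, also across the alpha globins on chromosome 11, the beta globins on chromosome 7 and Alas2 on the X chromosome. After the mean of each group was taken off, the log2 CPM of Hba-a1 and Hbb-bs had a Pearson's r of 0.90 (Spearman's rho 0.80) over the 20 libraries, and Hba-a1 and Hbb-bt one of 0.90 (rho 0.88). Hbb-bs and Hbb-bt had an r of 0.85 and Hbb-bs and Alas2 one of 0.80, though Alas2 shares 0 stretches of 100 bases with the globins. The lowest of the 10 pairs was Hba-a2 with Alas2, at an r of 0.57 and a rho of 0.31.

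In 10 of the 20 mice all 5 genes lay on the same side of their group means, above in 4 mice and below in 6. The mouse farthest above was WT/WT replicate 3 of 2 months, with a mean deviation of 0.89 on the log2 scale (0.71 for Hba-a1, 1.02 for Hba-a2, 0.87 for Hbb-bs, 0.89 for Hbb-bt and 0.96 for Alas2). Farthest below was WT/WT replicate 1 of 12 months, at −0.73. The 304Q/304Q mice of 12 months were the exception, since in 0 of these 5 mice did all genes deviate the same way, and their mean deviations ran only from −0.20 to 0.12. The mean r of the other 4 genes with Hbb-bs was 0.82, and 0.66 without the 2 libraries farthest from the median of Hbb-bs, which are the same WT/WT libraries.

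**Figure D3:**
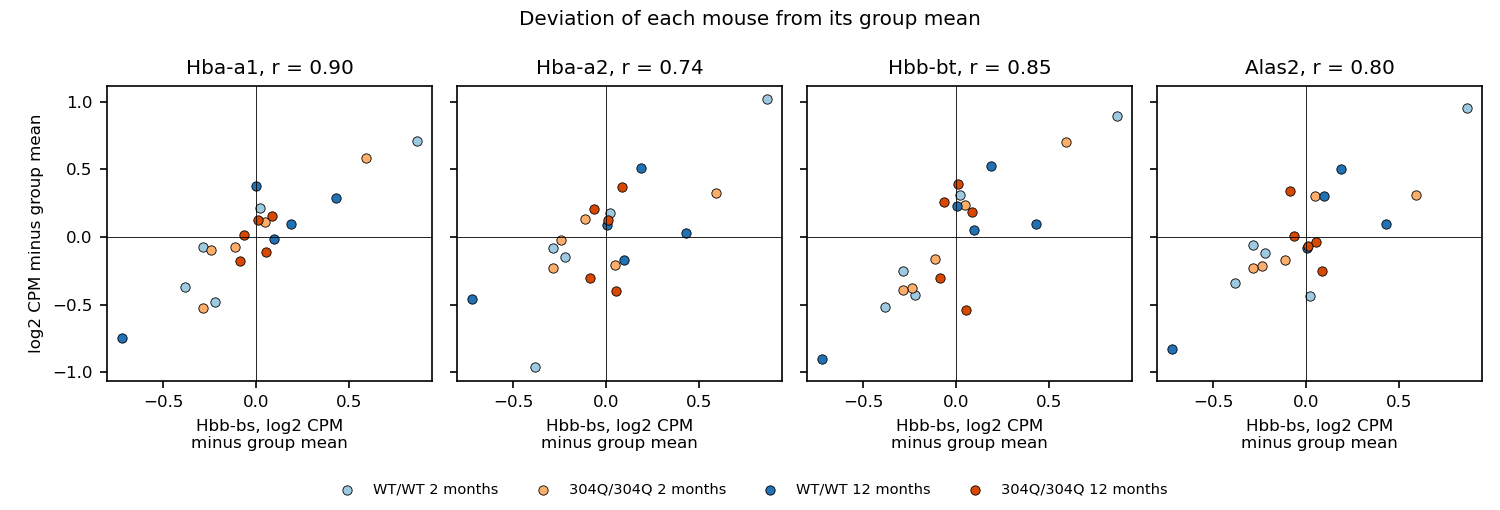
Deviation of each of the 20 mice from the mean of its group in log2 CPM, for Hbb-bs (x axis) against Hba-a1, Hba-a2, Hbb-bt and Alas2 (y axis), with 1 point for each mouse coloured by group. The points follow a rising line with r between 0.74 and 0.90, and the 304Q/304Q mice of 12 months sit near 0.

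Among the 15193 other genes whose mean count was 10 or more, ranked by their r with Hbb-bs, Hba-a1 was at rank 1, Hbb-bt at 2, Alas2 at 5 and Hba-a2 at 11. The median r over these genes was 0.0018 and the 99th percentile 0.556, with the libraries and their depths shared by all. The non-member genes most like Hbb-bs were Gstm1 (r 0.81), a glutathione transferase, Hspa2 (0.80), a heat shock protein, Pgap3 (0.80), Ndrg2 (0.78), which is abundant in astrocytes, Gm44646 (0.75), Rpl17-ps5 (0.74), Yipf2 (0.74), Aldh9a1 (0.72), Igfbp4 (0.71), a binding protein of insulin-like growth factors, and Nadsyn1 (0.70). Without the 2 farthest libraries these 10 values fell to between 0.55 and 0.70.

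Likeness across mice within groups did not mean the same difference between groups. Igfbp4 was higher in 304Q/304Q mice of 12 months, at 36.4 ± 4.20 CPM against 18.6 ± 1.75 CPM in WT/WT mice (SD, n = 5; log2 fold change 0.97, adjusted p = 2.41e-05 by edgeR), opposite to the globins. Gstm1 and Ndrg2 had log2 fold changes of −0.40 and −0.42 there, with adjusted p-values of 0.000248 and 8.32e-07, below the size needed for a call.

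Proportions of the transcripts were also taken within each library. The ratio of alpha to beta globin counts was 0.301 ± 0.0368 (SD) over the 20 mice, from 0.249 to 0.397, while the sum of the 4 genes ranged from 90.9 to 240 CPM. By group it was 0.281 ± 0.0334 for WT/WT and 0.293 ± 0.0270 for 304Q/304Q at 2 months, and 0.329 ± 0.0449 for WT/WT and 0.300 ± 0.0322 for 304Q/304Q at 12 months (SD, n = 5). The SD of its log2 was 0.173, about double the 0.0822 that counting alone gives.

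Hba-a1 had 2.71 ± 0.603 times the counts of Hba-a2, from 1.92 to 4.42, and Hbb-bs 23.6 ± 5.51 times those of Hbb-bt, from 17.2 to 41.5 (SD, n = 20), both subject to the split of shared reads. Alas2 had 25.9 ± 5.31 counts for every 1000 globin counts. This was 22.4 ± 4.25 for WT/WT and 29.1 ± 6.60 for 304Q/304Q at 12 months, and 23.9 ± 4.33 and 28.1 ± 3.80 at 2 months (SD, n = 5). In 304Q/304Q mice of 12 months, where the globin sum kept to 100 ± 6.21 CPM, Hbb-bs over Hbb-bt was 27.98 ± 8.74 (SD, n = 5), a wider relative spread than that of the sum. Hbb-bt had only 24 to 51 counts per library in this group. Between genotypes the groups overlapped in all 4 ratios at both ages.

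**Figure D4:**
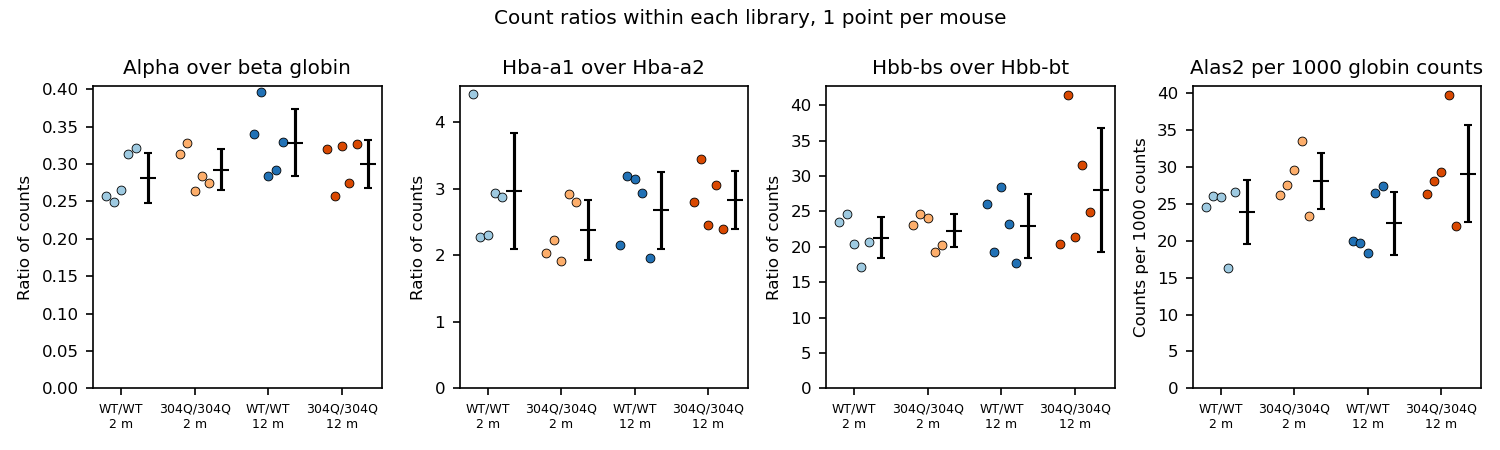
Ratios of counts within each library (y axes, from 0) by group (x axis), for alpha over beta globin, Hba-a1 over Hba-a2, Hbb-bs over Hbb-bt, and Alas2 per 1000 globin counts, with 1 point for each mouse and the mean ± SD of 5 mice as a bar. Alpha over beta stays between 0.249 and 0.397 in all 20 mice.

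The other genes of heme and iron handling came from 3 lists, in which 1 gene was called. Of the 8 remaining enzymes of heme synthesis, all were tested and 0 were called in any of the 5 comparisons by edgeR or DESeq2, with between 1 and 3 of them at an unadjusted p under 0.05 in each. Alas1 had a log2 fold change of −0.03 between genotypes at 12 months (adjusted p = 0.749 by edgeR), and its r with Hbb-bs was 0.01. The highest r of these enzymes was 0.30, for Urod, which decarboxylates uroporphyrinogen, and the median over the 8 was 0.05. Urod had the same sign as the members in all 5 comparisons and stayed below the size needed for a call, with log2 fold changes of −0.18 for genotype at 12 months, 0.19 for age in WT/WT mice and −0.33 for the interaction (adjusted p = 0.0445, 0.0364 and 0.0338 by edgeR). Fech, which inserts the iron, had the opposite sign for genotype at 12 months (0.24, adjusted p = 0.0173). Of 9 genes that carry heme and iron to and from the mitochondrion or into the cell, 8 were tested and 1 was called, the transferrin receptor Tfrc. It fell by 1.05 on the log2 scale with age in WT/WT mice (adjusted p = 3.01e-06 by edgeR) and by 0.63 in 304Q/304Q mice (adjusted p = 0.000596). Between genotypes at 12 months Tfrc had a log2 fold change of 0.42 (adjusted p = 0.0182 by edgeR), opposite in sign to the members and below the size for a call. Of 12 genes of heme breakdown, export and scavenging, 9 were tested and 0 called by either tool, with 1 or 2 at an unadjusted p under 0.05 in each comparison. Abcg2 had a log2 fold change of −0.46 for genotype at 12 months (adjusted p = 0.00632 by edgeR), also below that size. The heme oxygenase gene Hmox1 had the highest r of this list, 0.41, and Cd163, the receptor of macrophages for hemoglobin bound to haptoglobin, the lowest, −0.52. With a mean of 27.75 counts, Cd163 was not tested. At 2 and 12 months it was at a mean of 2.66 and 2.68 CPM in WT/WT and 1.34 and 1.14 CPM in 304Q/304Q mice. Hpx and Hp, also not tested, had means of 4.6 and 2.8 counts.

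Among the other globins, Cygb had a mean of 1537 counts, an r of 0.14 with Hbb-bs and log2 fold changes between −0.01 and 0.10 in all 5 comparisons, none called. Myoglobin (Mb) had a mean of 11.7 counts and an r of 0.06. Ngb and the minor and embryonic globin genes Hbq1a, Hbq1b and Hbb-y had means from 0.25 to 1.80 counts and were each at 0 in some libraries, and Hba-x, Hbb-bh0, Hbb-bh1 and Hbb-bh2 were not analysed here.

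Transcripts of red cell precursors ranged from 0 to well detected. Gata1 was at 0 in 17 of the 20 libraries, Rhag in 18, Hemgn in 18, Kel in 18 and Gfi1b in 19, and Klf1 had a mean of 3.3 counts and was at 0 in 4. The carbonic anhydrase gene Car1 had a mean of 28.85 counts, with 0 in 6 libraries and up to 89, and the erythropoietin receptor gene Epor had 74.65. The transcription factor genes Tal1 and Lmo2, which endothelial cells also express, had means of 16.45 and 244.95 counts and were detected in every library. Of the 10 erythroid transcription factors with Epor, 5 were tested and 0 called by either tool, with up to 3 at an unadjusted p under 0.05 in a comparison. Of 20 listed red cell proteins, 17 were in the table and 10 had a mean under 10 counts. Slc4a1, the band 3 anion exchanger, had a mean of 20.95 counts and an r of 0.25 with Hbb-bs, and Isg20 had 15.55 counts and an r of 0.49, the highest of the list. Car1 had an r of 0.01, and Tent5c, with a mean of 24 counts, one of −0.19. At 12 months Tent5c was at a mean of 2.03 CPM in WT/WT and 2.63 CPM in 304Q/304Q mice. Car1, Slc4a1 and Isg20 went the other way, from 1.76, 1.58 and 1.57 CPM to 0.951, 1.27 and 0.999 CPM. The groups overlapped in each of these genes, none of which was tested. Ank1, Sptb and Bpgm, with means from 1004 to 9877 counts, are also expressed in neurons and other cells. They were tested, with 0 called by either tool and up to 2 at an unadjusted p under 0.05, and their r lay between −0.28 and 0.06. Without these 3, left out after their values were seen, the 14 other genes summed to between 5.83 and 12.1 CPM in WT/WT and between 4.42 and 8.63 CPM in 304Q/304Q mice of 12 months. At 2 months their sum was between 3.59 and 12.8 CPM in WT/WT and between 3.95 and 10.7 CPM in 304Q/304Q mice. The means were 8.65 and 6.21 CPM at 2 months and 8.45 and 6.76 CPM at 12 months.

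Markers of other cells of blood and vessels differed between genotypes at 12 months in some cases. For platelets, 10 of 11 listed genes were in the table, of which 7 had a mean under 10 counts, and they summed to between 9.11 and 13.6 CPM in WT/WT and between 6.37 and 9.53 CPM in 304Q/304Q mice. Most of this was Gp1bb, at a mean of 7.78 and 4.03 CPM, a platelet glycoprotein gene whose span overlaps Sept5 on the same strand, and which was called (log2 fold change −0.94, adjusted p = 0.00155 by edgeR, and −1.04 in the interaction, adjusted p = 0.0391). Its r with Hbb-bs was 0.18. The 25 genes of blood leukocytes, of which 22 had a mean under 10 counts, summed to between 6.23 and 12.9 CPM in WT/WT and between 9.07 and 13.9 CPM in 304Q/304Q mice. Their sum had an r of 0.26 with Hbb-bs over the 20 mice.

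All 16 endothelial genes were tested and 0 were called at 12 months by either tool, with 5 at an unadjusted p under 0.05, but their sum, from 522 to 531 CPM in WT/WT and from 461 to 497 CPM in 304Q/304Q mice, did not overlap between genotypes. Its r with Hbb-bs was −0.20. The endothelial genes did not fall together, with 7 positive and 9 negative log2 fold changes and a median of −0.05. Slc2a1, among the most abundant of them, went from a mean of 134 CPM in WT/WT to 106 CPM in 304Q/304Q mice. The sum of the granule and Purkinje cell genes did not overlap at this age either, from 7990 to 8333 CPM against 7011 to 7854 CPM. Of 8 mural cell genes tested, the smooth muscle genes Acta2 and Myh11 were lower in 304Q/304Q mice of 12 months (log2 fold changes −0.58 and −0.67, adjusted p = 0.00525 and 0.0211 by edgeR). With age in WT/WT mice, the endothelial gene Ly6a rose by 0.53 on the log2 scale (adjusted p = 0.0114) and the collagen gene Col3a1 of the meninges fell by 0.76 (adjusted p = 0.0159). The part of blood, vessel and platelet content in the differences of the globin genes was not tested.

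Other tissue at the edge of the dissection also varied between mice. The 9 choroid plexus genes summed to between 35.7 and 2142 CPM in WT/WT mice of 12 months and had an r of −0.26 with Hbb-bs, and Ttr and Kl were called with age in WT/WT mice (log2 fold changes 7.53 and 3.56). The 7 genes of skeletal muscle reached 255 CPM in 1 library of the 304Q/304Q mice of 12 months, where edgeR called Acta1 (log2 fold change 3.22) and Myh4 and DESeq2 called 0 of them, and had an r of 0.09. Myh4 was at 0 in 17 of the 20 libraries, all WT/WT mice included, and is given no fold change. Of the 9 granule and Purkinje cell genes, Pcp2 was lower in 304Q/304Q mice of 12 months (log2 fold change −0.59, adjusted p = 4.2e-05 by edgeR), and their sum had an r of 0.20.

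**Figure D5:**
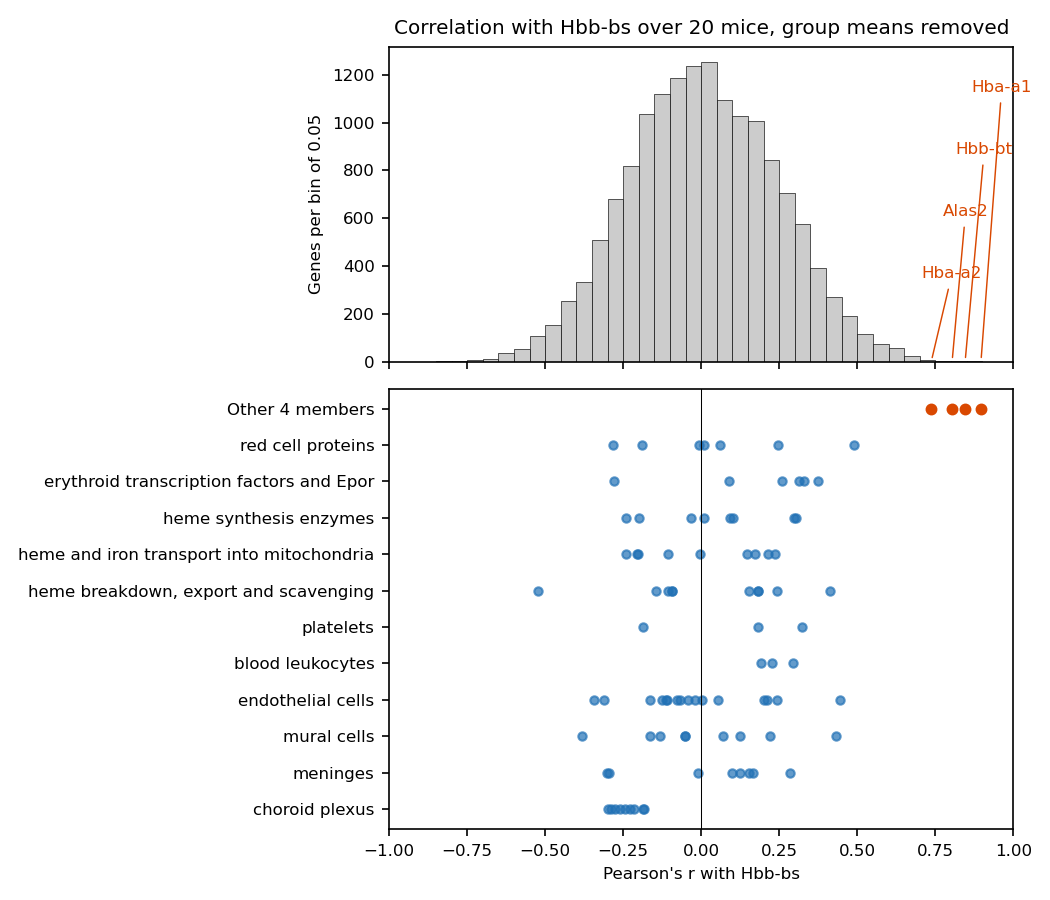
Top, histogram of Pearson's r with Hbb-bs over the 20 mice after group means were removed (x axis) for 15193 genes, with the count of genes per bin of 0.05 on the y axis and the other 4 members marked. Bottom, the same r for each listed gene with a mean of at least 10 counts, by list, where the highest listed gene, Isg20, is at 0.49 and the lowest of the 4 members at 0.74.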

How the data were processed

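Per the labels and the study's methods, total RNA of mouse cerebella kept in RNAlater was enriched for polyA and sequenced from stranded libraries as paired ends. The authors used STAR (2.4.5b in the submitters' processing notes) to align to GRCm38, and Rsubread gave the whole-number counts per gene that they deposited without normalization. How reads shared by 2 genes were counted is not given in the sources used here. The study's own tests used DESeq2 with sva.

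The counts were scaled by TMM in edgeR 4.0.16 (R 4.3.3). Genes whose mean over the 20 libraries reached 50 counts (12153, with 99.3% of the counts) entered a quasi-likelihood fit of the 4 groups in edgeR, and p-values were adjusted over all of them (Benjamini-Hochberg). Calls had the thresholds 0.05 for the adjusted p and 0.5 for the size of the log2 fold change. A prior count of 2 went into log2 CPM. CPM, RPKM (over the union of exons in GENCODE M21) and ratios were computed from the deposited counts. Counting alone gives Alas2 a coefficient of variation of 0.140, and Hbb-bs one of 0.0259. Every pair of mice in a group differed by more than sampling noise (chi-square over its degrees of freedom 4.43 or more).

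The members, lists and tests were chosen with earlier results of these data known. Named are the 5 members, listed genes that were called, heme enzymes and globins with at least 10 counts, genes that define a listed cell type, and the 10 genes most like Hbb-bs. Values of some listed genes are not reported here. Symbols were found for 29138 of the gene IDs, and 5 of the 5 members were found among the RefSeq promoters. The alternatives took DESeq2 1.42.0, 3 surrogate variables (sva 3.50.0) in either tool, other scaling, filters and groups in the fit, the replicate number as a block, and each library left out in turn. Tested on simulated counts for genotype at 12 months over 12153 genes, edgeR called 73 of 73 genes changed by 2-fold and 49 of 60 changed by 1.5-fold, with 4 calls among unchanged genes. The changed genes were picked at random and simulated independently of each other. The members vary more than most genes and vary together, so this does not give the recovery for them.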

Additional observations from a re-analysis of the deposited data

Results flagged for a closer look

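In 20 groups of 5 values (5 genes in 4 groups), the highest value stood apart from the rest of its group by Dixon's criterion in 2. Chance flags about 1 in 20 independent groups, which does not apply here, since the genes were chosen on these values and vary together, so both are given as a description. Both were those of WT/WT replicate 3 of 2 months, with 165 CPM for Hbb-bs, against 69.3 to 91.9 CPM in the other 4 mice, and 5.69 CPM for Alas2, against 2.08 to 2.74 CPM. Without this library, the log2 fold changes with age in WT/WT mice were 0.82 for Hbb-bs and 0.83 for Alas2, and both were called (adjusted p = 0.00576 and 0.0316 by edgeR).

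The difference between genotypes changed with age by −1.17 on the log2 scale for Hba-a1 and by −1.42 for Hba-a2, by the test of the interaction itself (adjusted p = 0.0397 and 0.0333 by edgeR). For Hba-a1 the log2 fold change of 304Q/304Q against WT/WT mice was 0.17 at 2 months and −1.002 at 12 months, and for Hba-a2 0.36 and −1.06. Both genes share most of their sequence, so the 2 tests are not independent. No cause was tested.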

How the results depend on the processing

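The count of members called for genotype at 12 months was 4. It was 2 with at least 50 counts required in every library, where only 2 members could be tested, 0 in DESeq2 with 3 surrogate variables and 2 in edgeR with them, and from 4 to 5 with 1 library left out. For age in WT/WT mice (2 called) it was 1 with that filter, 0 with surrogate variables in either tool, 0 with only the groups compared, and from 0 to 4 with 1 library left out. For age in 304Q/304Q mice (0 called) it was 2 with only the groups compared and from 0 to 1 with 1 library left out. For the interaction (2 called) it was 1 with that filter, 0 in DESeq2 with surrogate variables and from 0 to 5 with 1 library left out. At 2 months it was 0 in all 28 alternatives. The cause of these losses was not tested, other than that the filter and the smaller fits test fewer genes or fewer libraries.

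Over the alternatives run, signs turned only at 2 months, to −0.0054 for Hbb-bs and −0.114 for Hbb-bt without 304Q/304Q replicate 5, and to −0.018 and −0.0083 for Hbb-bt without WT/WT replicate 1 or 2. With 1 library left out their log2 fold changes there ran up to 0.457 and 0.395. The mean r of the other members with Hbb-bs, 0.82, was 0.66 without the 2 farthest libraries and from 0.720 to 0.845 with 1 left out.

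The replicate numbers do not pair the mice, since 4 of 20 pairs with the same number had deviations that correlated above 0.1 (r from −0.323 to 0.551). With the replicate block the interaction of Hbb-bs was called (adjusted p = 0.0460 by edgeR), so that 3 members were, and no other call of a member changed.

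Over all genes, the called counts differed by over 1.5 times at 2 months (1 gene, and 3 without a filter, 8 in DESeq2, 10 and 9 with surrogate variables in DESeq2 and edgeR, and 2 without any 1 of 6 single libraries). For age in WT/WT mice, 314 became 203 and 185 with surrogate variables, 205 without 2-month WT/WT replicate 1 and 595 without 12-month replicate 1. For the interaction, 114 became 173 in DESeq2, 176 without 304Q/304Q replicate 5 of 2 months, and 265 and 75 without WT/WT replicates 1 and 3 of 12 months. Depth limits Alas2 and Hbb-bt most, with means of 51.2 and 66.95 counts.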
